A study of Mus musculus with 48 samples.

Results

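The growth hormone and STAT5 set held 10 genes chosen by name: Ghr, Stat5b, Socs2, Igf1, Igfals, Cyp2d9, Hsd3b5, Elovl3, Cyp4a12a and Selenbp2. They were the rows of the deposited normalized table with those symbols, 10 of 14251 genes, and all 10 passed the filter on low counts that left 12688 genes for testing. Livers of 48 male C57BL6J mice were profiled by QuantSeq, a method that counts reads from the 3′ ends of polyadenylated transcripts. For 2 weeks their drinking water held corticosterone at 100 ug/ml (Cort), the chief adrenal glucocorticoid of mice, or vehicle, which was 1% ethanol (EtOH). Within each, some ate milled Teklad food with atglistatin at 571 mg/kg (ATGLi), an inhibitor of the enzyme that starts the breakdown of stored triglyceride, and the others ate control food (CON). The groups were Cort ATGLi (14 livers), Cort CON (14), EtOH ATGLi (10) and EtOH CON (10), and each library carries its group's name and its title number. The labels do not say whether the corticosterone water also held ethanol, and they give no ages, cages or hours of collection. Of 14 mice in each Cort group, 1 Cort ATGLi and 9 Cort CON mice were labelled diabetic, and no EtOH mouse was.

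Pituitary growth hormone binds its receptor GHR on hepatocytes, which activates the kinase JAK2 and, through it, the transcription factor STAT5B. Active STAT5B raises Socs2, a feedback inhibitor of the receptor, and Igf1 and Igfals, which encode a circulating growth factor and its carrier subunit. Male mice release the hormone in pulses, and that pattern is known to keep Cyp2d9, Hsd3b5, Elovl3, Cyp4a12a and Selenbp2 higher in male than in female liver. The glucocorticoid receptor and STAT5B are also known to bind some liver genes together. In mice the receptor gene additionally encodes a soluble growth hormone binding protein, and counts per gene do not separate its transcripts.

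STAT5 binds the motif named GAS, TTCNNNGAA, which reads the same on both strands. RefSeq start windows of the GRCm38.p6 build, each with 250 bases before and 50 after an annotated start, were matched by symbol for 7 of 10 members (11 windows). The single Hsd3b5 window lies outside the gene's annotated span in the table of positions used below. Windows of Socs2, Elovl3 and Cyp4a12a were not matched. The motif was found in 2 of 11 member windows, both of Igfals, and in 8.3% of all 32851 windows of that length. The glucocorticoid receptor core motif AGAACA, searched on both strands, was in 1 of 11 member windows and in 19% of all windows. These matches describe letters in the windows and are not binding sites. The Igfals stretches are shown because they hold the motif, in capitals, 236 and 58 bases before their starts, and the Selenbp2 stretch because that gene had the largest change with atglistatin among the 10. Each is given 5′ to 3′ up to the first annotated exon base, at chr17:24877594-24877655 and chr17:24877981-24878214 for Igfals and chr3:94693323-94693555 for Selenbp2, all on the plus strand.
Igfals, upstream start: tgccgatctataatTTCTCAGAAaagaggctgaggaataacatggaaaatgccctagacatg
Igfals, downstream start: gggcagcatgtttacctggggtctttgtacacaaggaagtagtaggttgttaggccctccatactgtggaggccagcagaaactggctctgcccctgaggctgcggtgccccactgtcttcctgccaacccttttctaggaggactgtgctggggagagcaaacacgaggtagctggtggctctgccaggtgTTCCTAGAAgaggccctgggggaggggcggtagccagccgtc
Selenbp2: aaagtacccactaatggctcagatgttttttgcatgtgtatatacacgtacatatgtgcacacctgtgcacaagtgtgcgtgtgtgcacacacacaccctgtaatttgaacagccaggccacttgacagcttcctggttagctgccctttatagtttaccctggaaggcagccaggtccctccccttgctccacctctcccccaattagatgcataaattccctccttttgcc

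Total counts per library ran from 7449109 to 21175603, and levels are given as CPM (counts scaled to a common library size). The 9 hepatocyte markers present in the table summed to between 88148 and 163504 CPM in every library, with none at 0. Summed levels of 12 macrophage markers were 90.1 to 514 CPM in Cort ATGLi and 112 to 239 CPM in Cort CON livers, against 252 to 412 CPM in EtOH ATGLi and 308 to 533 CPM in EtOH CON livers. Of these 12 markers 11 were called lower with corticosterone on each diet, and their part in the results on the members was not tested. Pancreatic acinar markers summed to at most 88.3, 3178, 6763 and 510 CPM in Cort ATGLi, Cort CON, EtOH ATGLi and EtOH CON livers. All 8 tested acinar markers were called lower with corticosterone on the atglistatin diet and 5 of 8 lower with atglistatin under corticosterone, beside 17.7% and 6.47% of all genes. The sums of 6763 and 3178 CPM were those of single livers, EtOH ATGLi library 6 and Cort CON library 30. Median sums were 24.4 CPM in EtOH ATGLi, 17.0 CPM in Cort CON and 17.1 CPM in Cort ATGLi livers. The part of those single livers in the marker calls was not tested. Calls lost without the 6 libraries with Cpa1, a pancreatic enzyme gene, above 20 CPM are given beside the members. Library 41 of Cort ATGLi stood apart, with the lowest value of its group for 8 of the 10 members, the lowest insulin label of its group (2.19) and a macrophage sum of 514 CPM. Library 14 of EtOH ATGLi was lowest of its group for 6 members, with a macrophage sum of 412 CPM, and library 45 of Cort CON for 7 members. In whole liver, fewer cells of a type and less RNA per cell cannot be told apart.

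On the control diet, corticosterone lowered Ghr, Socs2 and Hsd3b5 and left 7 of the 10 members uncalled, Igf1 among them. A gene was called where edgeR's adjusted p was at most 0.05. Of all 12688 genes tested, 44.2% were called in this comparison (21.7% called lower), and 3 of 10 members is near these shares. On the atglistatin diet, corticosterone lowered Ghr and Stat5b and raised Igf1 and Selenbp2, 4 of 10 members beside 36.7% of all genes. Atglistatin lowered Selenbp2 under vehicle (1 of 10 members, 3.13% of all genes) and Stat5b and Cyp4a12a under corticosterone (2 of 10 members, 11.7% of all genes). The median log2 fold change over the 10 members was -0.42 and -0.02 for corticosterone on the control and atglistatin diets, and -0.24 and -0.15 for atglistatin under vehicle and corticosterone. The medians over all genes tested were 0.01, 0.02, -0.0022 and 0.00044 in the same order.

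**Figure D1:**
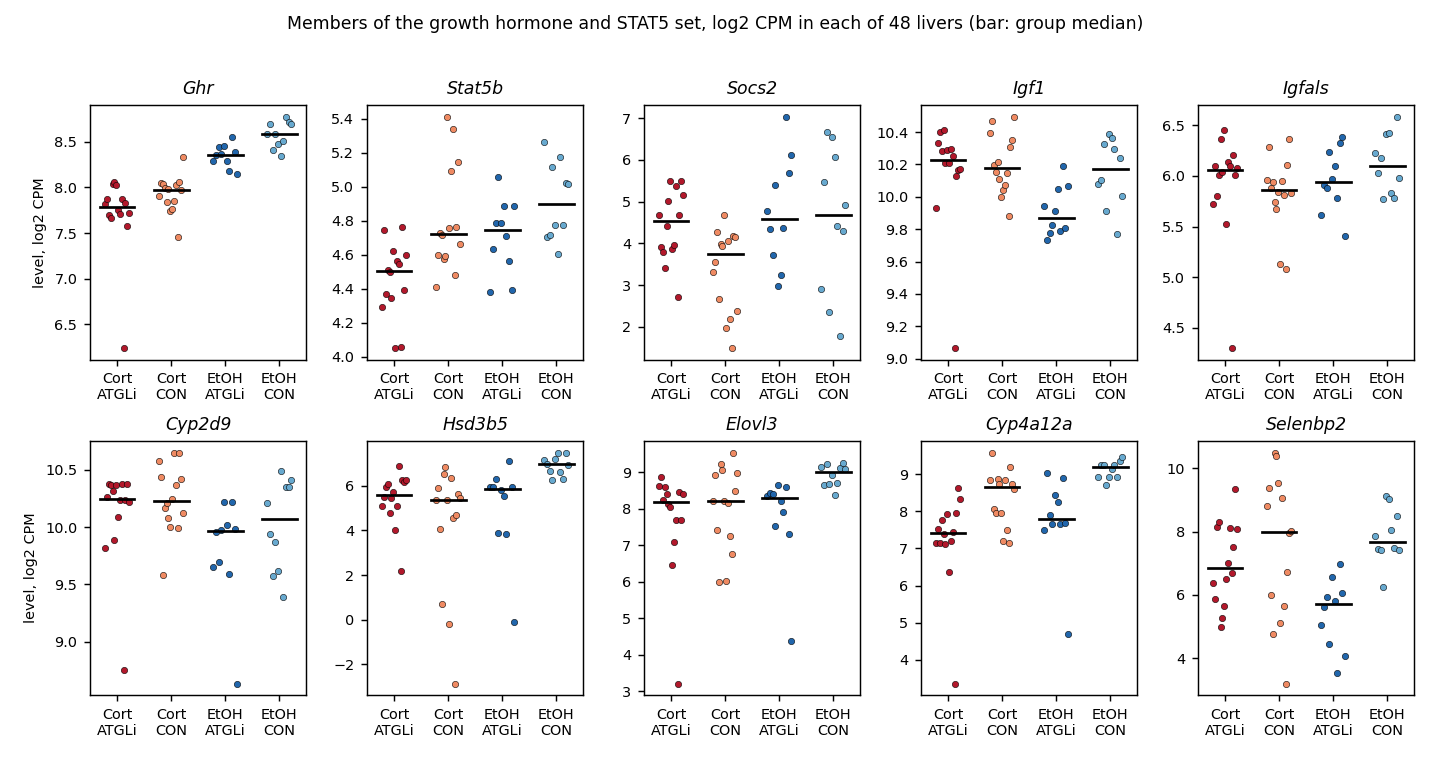
Level of each member in each of 48 livers, in log2 CPM with a prior count of 2, by group in the order Cort ATGLi, Cort CON, EtOH ATGLi and EtOH CON, with a bar at the group median. Ghr separates the Cort from the EtOH groups on each diet, while Socs2, Hsd3b5 and Selenbp2 spread over several log2 units within a group, and the lowest Cort ATGLi and EtOH ATGLi points of Hsd3b5, Elovl3 and Cyp4a12a are libraries 41 and 14.

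Ghr, the growth hormone receptor gene (chr15:3317760-3583492, minus strand, GRCm38), gave the clearest difference of the set. Its lowest, median and highest levels were 75.6, 221 and 266 CPM in Cort ATGLi and 176, 252 and 322 CPM in Cort CON livers, against 282, 328 and 375 CPM in EtOH ATGLi and 324, 383 and 437 CPM in EtOH CON livers. On each diet every Cort liver lay below every EtOH liver, so the groups did not overlap. Such separation was seen in 6.11% of all genes on the control diet and 3.14% on the atglistatin diet. Ghr fell by 0.64 ± 0.10 on the log2 scale on the control diet (SE, edgeR adjusted p = 1.05e-06, 1.56-fold lower) and by 0.59 ± 0.10 on the atglistatin diet (edgeR adjusted p = 7.46e-06, 1.51-fold lower). The difference between these effects was 0.05 ± 0.15 (95% interval -0.24 to 0.33). With atglistatin, Ghr changed by -0.23 ± 0.11 under vehicle (edgeR adjusted p = 0.288) and by -0.19 ± 0.09 under corticosterone (edgeR adjusted p = 0.211), neither of which passed. Ghr was still called lower with corticosterone, on each diet, without any 1 of the 48 libraries, without the diabetic mice and without the libraries rich in pancreatic transcripts.

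Stat5b, the transcription factor downstream of the receptor (chr11:100780731-100850724, minus strand), moved less and its groups overlapped in every comparison. It ranged over 16.5, 22.6 and 27.04 CPM in Cort ATGLi and 21.1, 26.3 and 42.4 CPM in Cort CON livers, against 20.7, 26.7 and 33.1 CPM in EtOH ATGLi and 24.2, 29.8 and 38.2 CPM in EtOH CON livers (lowest, median, highest). Its level was lowest with both agents together. Stat5b fell by 0.37 ± 0.10 with atglistatin under corticosterone (edgeR adjusted p = 0.00625), where all 14 Cort ATGLi livers lay below the Cort CON mean. That call was lost without the diabetic mice (-0.35, edgeR adjusted p = 0.0681). Here and below, that step leaves out 9 of 14 Cort CON and 1 of 14 Cort ATGLi livers, so fewer livers are compared. Corticosterone lowered Stat5b by 0.26 ± 0.10 on the atglistatin diet (edgeR adjusted p = 0.0476) and changed it by -0.10 ± 0.10 on the control diet (edgeR adjusted p = 0.477). The first of these is at the edge of the threshold. It was lost without any 1 of 14 libraries, namely Cort ATGLi 17, 18, 23, 26, 41 and 47, EtOH ATGLi 7, 8, 9, 10, 11 and 14, and EtOH CON 15 and 16, with values from -0.32 to -0.21 over all libraries left out in turn and edgeR adjusted p up to 0.114. It was also lost without the libraries with Cpa1 above 20 CPM (-0.27, edgeR adjusted p = 0.0654) and in limma voom with sample weights (-0.20, limma adjusted p = 0.0857). EtOH CON libraries 15 and 16 lie outside the groups compared and act only through the fit shared by all libraries.

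Among the other genes that carry or dampen the signal, 7 of 21 tested were called lower and 0 higher with corticosterone on the control diet (median -0.15), and 6 lower and 1 higher on the atglistatin diet (median -0.15), beside 21.7% and 17.7% of all genes called lower on these diets. Jak2, the receptor's kinase, ran from 3.27 to 7.21 CPM in Cort CON and 4.996 to 7.43 CPM in EtOH CON livers and fell by 0.39 ± 0.10 (edgeR adjusted p = 0.00135). On the atglistatin diet Jak2 fell by 0.34 ± 0.10 (edgeR adjusted p = 0.00476). Sirpa, a membrane protein of macrophages that is also a JAK2 substrate, changed more and fell by 1.57 ± 0.20 on the control diet (edgeR adjusted p = 1.1e-08). Macrophage markers fell in the same livers, as given above, and their part in this value was not tested. Stat5a, the close relative of Stat5b, changed by -0.25 ± 0.12 (edgeR adjusted p = 0.099), and Cish, another STAT5 target that inhibits the receptor, by -0.15 ± 0.45 (edgeR adjusted p = 0.815). Cish was named after its values were seen. Cish ran from 1.46 to 41.5 CPM in Cort CON and from 2.03 to 42.1 CPM in EtOH CON livers, so its groups covered the same range. With atglistatin, 0 of 21 signalling genes were called under vehicle, beside 3.13% of all genes. Under corticosterone 2 were called lower, beside 6.47% of all genes, and over the alternatives this count ranged from 0 to 4. These were Irs2, an adaptor of the insulin receptor (-0.86 ± 0.22, edgeR adjusted p = 0.00689), and Lepr, the leptin receptor gene (-1.14 ± 0.36, edgeR adjusted p = 0.0271). Lepr was named after its values were seen and had a mean of only 0.704 CPM over all livers.

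Socs2, the feedback inhibitor that STAT5B induces (chr10:95385362-95417180, minus strand), fell 3.21-fold with corticosterone on the control diet. Its lowest, median and highest levels were 6.49, 23.2 and 44.9 CPM in Cort ATGLi and 2.68, 13.5 and 25.6 CPM in Cort CON livers, against 7.74, 23.9 and 130.5 CPM in EtOH ATGLi and 3.33, 25.8 and 101 CPM in EtOH CON livers. The EtOH groups hold both low and high livers, so the Cort and EtOH groups overlapped at the low end and differed at the high end. The change was -1.68 ± 0.45 on the control diet (edgeR adjusted p = 0.00179), with all 14 Cort CON livers below the EtOH CON mean, and -0.66 ± 0.44 on the atglistatin diet (edgeR adjusted p = 0.242). The difference between the diets, 1.02 ± 0.63, did not pass (edgeR adjusted p = 0.57). The control-diet call was lost without the diabetic mice (-1.24, edgeR adjusted p = 0.141) and in limma voom with sample weights (-1.06, limma adjusted p = 0.0781). Atglistatin left the fitted mean of Socs2 under vehicle at 0.00 ± 0.47 (95% interval -0.92 to 0.92) and gave 1.02 ± 0.42 under corticosterone (edgeR adjusted p = 0.105). The latter passed with the compared groups alone (1.02, edgeR adjusted p = 0.0261). Reads could be shared for 27.6% of the 50-base words at the transcript ends of Socs2, with the annotated gene Gm9847 and, for 2.7%, also with Gm8000.

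Igf1, the growth factor that carries much of the hormone's action on growth (chr10:87858265-87937042, plus strand), did not follow Ghr. Its lowest, median and highest levels were 536, 1201 and 1366 CPM in Cort ATGLi and 942, 1156 and 1442 CPM in Cort CON livers, against 852, 935 and 1167 CPM in EtOH ATGLi and 873, 1156 and 1342 CPM in EtOH CON livers. The EtOH ATGLi livers were the lowest group and the other 3 medians lay close together, with overlap throughout. On the control diet corticosterone changed Igf1 by 0.05 ± 0.09 (edgeR adjusted p = 0.699, 95% interval -0.13 to 0.24). On the atglistatin diet Igf1 rose by 0.27 ± 0.10 (edgeR adjusted p = 0.0233), with 13 of 14 Cort ATGLi livers above the EtOH ATGLi mean. That call was lost without Cort ATGLi library 24, 26 or 40 or EtOH ATGLi library 13 (0.23 to 0.24, edgeR adjusted p up to 0.0652), and without the libraries rich in pancreatic transcripts (0.23, edgeR adjusted p = 0.0811). It was also lost with the compared groups alone (0.25, edgeR adjusted p = 0.0612). The difference between the diets was 0.22 ± 0.13 (edgeR adjusted p = 0.566). With atglistatin Igf1 changed by -0.25 ± 0.10 under vehicle (edgeR adjusted p = 0.197) and by -0.03 ± 0.09 under corticosterone (edgeR adjusted p = 0.886). In limma voom with sample weights the change under vehicle passed (-0.25, limma adjusted p = 0.0436).

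Igfals, the carrier subunit that holds IGF1 in the circulation (chr17:24865997-24882010, plus strand), was not called in any comparison. It ranged over 19.6, 66.7 and 87.3 CPM in Cort ATGLi and 33.7, 58.0 and 82.5 CPM in Cort CON livers, against 42.4, 61.3 and 83.1 CPM in EtOH ATGLi and 54.7, 68.5 and 95.8 CPM in EtOH CON livers (lowest, median, highest), and all groups overlapped. Corticosterone changed Igfals by -0.28 ± 0.15 on the control diet (edgeR adjusted p = 0.115) and by -0.0034 ± 0.15 on the atglistatin diet (95% interval -0.29 to 0.28). The control-diet change passed without Cort ATGLi library 41 and EtOH ATGLi library 14 together (-0.29, edgeR adjusted p = 0.0355). Both libraries lie outside the groups compared and act only through the fit shared by all libraries. Atglistatin changed Igfals by -0.16 ± 0.16 under vehicle and 0.12 ± 0.13 under corticosterone (edgeR adjusted p = 0.675 and 0.652). Of 8 tested genes for IGF binding proteins and related factors, 3 were called higher and 2 lower with corticosterone on the control diet, and 0 higher and 1 lower on the atglistatin diet, beside 44.2% and 36.7% of all genes called. Igfbp2, a binding protein that liver makes under fasting and low insulin, was 11.7 to 187 CPM in Cort ATGLi and 8.96 to 98.7 CPM in Cort CON livers, against 144 to 366 CPM in EtOH ATGLi and 90.5 to 238 CPM in EtOH CON livers. It fell by 2.41 ± 0.36 on the control diet (edgeR adjusted p = 2.38e-07) and by 2.29 ± 0.35 on the atglistatin diet (edgeR adjusted p = 1.03e-06). Igfbp1, which insulin represses, fell by 1.69 ± 0.52 on the control diet (edgeR adjusted p = 0.00693), while Igfbp3, the main carrier in the circulating complex, rose by 0.79 ± 0.21 (edgeR adjusted p = 0.00168). Igfbp4 rose by 0.28 ± 0.08 there (edgeR adjusted p = 0.00405). Median insulin labels were 13.8 in Cort ATGLi, 37.8 in Cort CON, 1.03 in EtOH ATGLi and 2.39 in EtOH CON livers. The part of insulin in these corticosterone changes was not tested.

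**Figure D2:**
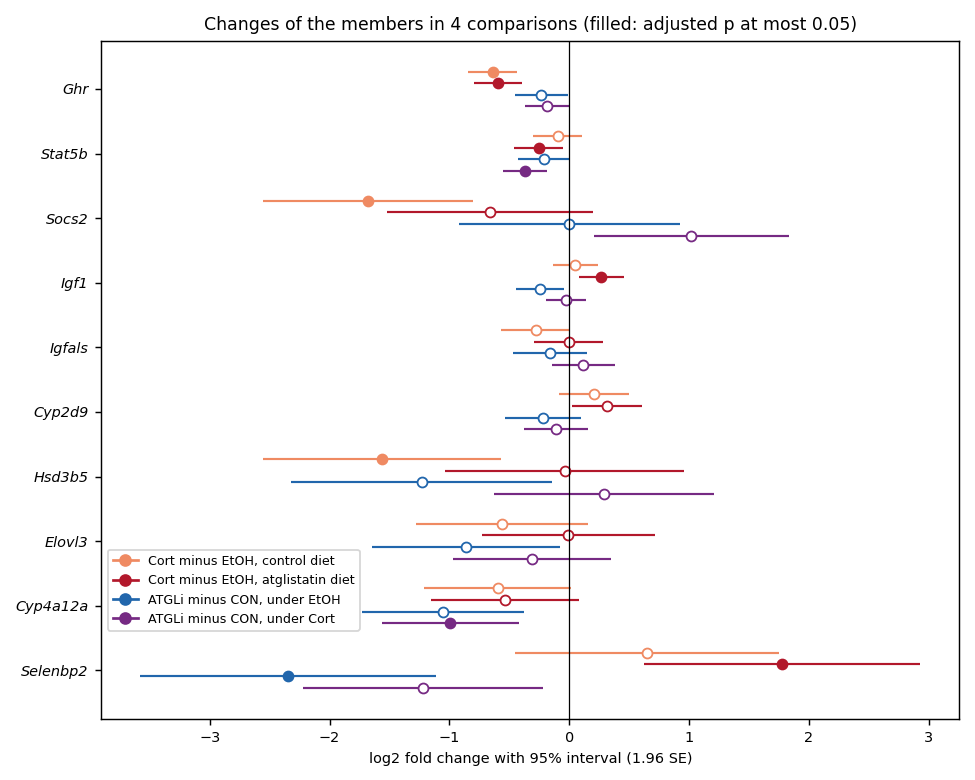
Log2 fold change of each member in 4 comparisons, as points with lines for the 95% interval, filled where the adjusted p was at most 0.05. Ghr lies below 0 with corticosterone on each diet, Igf1 lies near 0 on the control diet, and the widest lines are those of Socs2, Hsd3b5 and Selenbp2.

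The 5 male-biased members fell into no single pattern. Hsd3b5 encodes a male-specific liver enzyme that reduces steroids (chr3:98618634-98630252, minus strand). Its lowest, median and highest levels were 4.35, 48.6 and 116 CPM in Cort ATGLi and 0, 41.2 and 113 CPM in Cort CON livers, against 0.802, 58.2 and 136 CPM in EtOH ATGLi and 76.9, 124 and 179 CPM in EtOH CON livers. The EtOH CON livers were uniformly high, and each of the other 3 groups held both high and very low livers. Corticosterone lowered Hsd3b5 by 1.56 ± 0.51 on the control diet (edgeR adjusted p = 0.01), with all 14 Cort CON livers below the EtOH CON mean, and changed it by -0.04 ± 0.51 on the atglistatin diet (edgeR adjusted p = 0.965). The call was lost without the diabetic mice (-0.84, edgeR adjusted p = 0.252) and without the libraries with Cpa1 above 20 CPM (-1.23, edgeR adjusted p = 0.0662). Atglistatin changed Hsd3b5 by -1.23 ± 0.56 under vehicle (edgeR adjusted p = 0.251) and by 0.29 ± 0.47 under corticosterone (edgeR adjusted p = 0.766).

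Cyp4a12a, a male-biased fatty acid hydroxylase (chr4:115299046-115332815, plus strand), was lower with atglistatin. It ranged over 10.1, 171 and 396 CPM in Cort ATGLi and 142, 404 and 767 CPM in Cort CON livers, and over 25.8, 223 and 526 CPM in EtOH ATGLi and 419, 584 and 701 CPM in EtOH CON livers (lowest, median, highest). The atglistatin groups were lower under each water and overlapped their control-diet groups. Under corticosterone Cyp4a12a fell by 0.99 ± 0.29 (edgeR adjusted p = 0.0187), with 13 of 14 Cort ATGLi livers below the Cort CON mean. Without the diabetic mice this was -1.06 (edgeR adjusted p = 0.0923). Under vehicle the change was -1.05 ± 0.35 and did not pass (edgeR adjusted p = 0.0815), although all 10 EtOH ATGLi livers lay below the EtOH CON mean. It passed without Cort ATGLi library 41 (-1.05, edgeR adjusted p = 0.0291) and without EtOH ATGLi library 6 (-1.21, edgeR adjusted p = 0.0449). Library 41 lies outside the groups compared there and acts only through the fit shared by all libraries. Corticosterone changed Cyp4a12a by -0.60 ± 0.31 on the control diet and by -0.54 ± 0.31 on the atglistatin diet (edgeR adjusted p = 0.119 and 0.18). Both passed without Cort ATGLi library 41 and EtOH ATGLi library 14 together (-0.61 and -0.60, edgeR adjusted p = 0.0235 and 0.0434). On the control diet both libraries lie outside the groups compared. With the compared groups alone the control-diet change also passed (-0.61, edgeR adjusted p = 0.0229). Its near copy Cyp4a12b, with which 37% of its end words are shared, fell by 1.98 ± 0.32 with atglistatin under corticosterone (edgeR adjusted p = 9.92e-06), so reads of the pair may not be fully separated.

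Selenbp2, a selenium binding protein gene higher in males (chr3:94693556-94704413, plus strand), showed the largest single change of the set in the 4 comparisons, with atglistatin under vehicle, and spread widely between livers. Its lowest, median and highest levels were 31.4, 116 and 649 CPM in Cort ATGLi and 8.99, 254 and 1444 CPM in Cort CON livers, against 11.5, 52.0 and 126 CPM in EtOH ATGLi and 76.7, 207 and 561 CPM in EtOH CON livers. The EtOH ATGLi livers were the lowest group, and the Cort CON livers spanned the whole range of the study. Atglistatin lowered Selenbp2 by 2.35 ± 0.63 under vehicle (edgeR adjusted p = 0.0235, 5.09-fold lower), with all 10 EtOH ATGLi livers below the EtOH CON mean. Without EtOH CON library 9 (-2.17, edgeR adjusted p = 0.0504) or EtOH ATGLi library 11 (-2.23, edgeR adjusted p = 0.0519) it was just outside the threshold, and without all libraries with Cpa1 above 20 CPM it was -1.61 (edgeR adjusted p = 0.29). Under corticosterone atglistatin changed it by -1.22 ± 0.51 (edgeR adjusted p = 0.116), which passed without Cort ATGLi library 47 (-1.54, edgeR adjusted p = 0.0438) and without the diabetic mice (-1.92, edgeR adjusted p = 0.0299). Corticosterone raised Selenbp2 by 1.78 ± 0.59 on the atglistatin diet (edgeR adjusted p = 0.0148) and changed it by 0.65 ± 0.56 on the control diet (edgeR adjusted p = 0.365). This comparison and that of atglistatin under vehicle share the EtOH ATGLi livers. Selenbp2 shares 48.1% of its end words with Selenbp1, its near copy, which fell with corticosterone by 0.46 ± 0.13 on the control diet and by 0.57 ± 0.13 on the atglistatin diet (edgeR adjusted p = 0.00466 and 0.000712).

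Elovl3, a fatty acid elongase that also follows the time of day (chr19:46131897-46135694, plus strand), was not called in any comparison. It ranged over 9.12, 291 and 464 CPM in Cort ATGLi and 64.0, 299 and 745 CPM in Cort CON livers, against 20.7, 314 and 406 CPM in EtOH ATGLi and 332, 516 and 606 CPM in EtOH CON livers (lowest, median, highest). The EtOH CON median was the highest, the low livers lay in the other 3 groups, and the groups overlapped in every comparison. Atglistatin under vehicle gave -0.86 ± 0.40 (edgeR adjusted p = 0.269) with all 10 livers below the EtOH CON mean, and under corticosterone -0.31 ± 0.34 (edgeR adjusted p = 0.634). Corticosterone gave -0.56 ± 0.37 on the control diet (edgeR adjusted p = 0.214; -0.92 with limma adjusted p = 0.0304 in voom with sample weights) and -0.01 ± 0.37 on the atglistatin diet. Clock genes also differed with the diet and, on the atglistatin diet, with corticosterone. Of 2 clock genes 1 was called higher and 1 lower with corticosterone on the atglistatin diet, and 0 on the control diet. Dbp, a clock output gene, rose by 2.95 ± 0.44 with atglistatin under vehicle and by 1.89 ± 0.38 under corticosterone (edgeR adjusted p = 3.04e-05 and 0.000366). Arntl, which peaks at the opposite time, fell by 1.03 ± 0.25 under vehicle (edgeR adjusted p = 0.00983) and changed by -0.55 ± 0.20 under corticosterone (edgeR adjusted p = 0.0622). Median log2 Dbp minus log2 Arntl was 0.76 in Cort ATGLi, -2.11 in Cort CON, 2.62 in EtOH ATGLi and -0.93 in EtOH CON livers. With this difference as a covariate, 0 members were called for atglistatin under either water. The same fit called 3 members with corticosterone on the control diet and 4 on the atglistatin diet. In that fit Selenbp2 changed by -2.15 under vehicle (edgeR adjusted p = 0.341), and under corticosterone Stat5b changed by -0.28 and Cyp4a12a by -0.97 (edgeR adjusted p = 0.142 and 0.101). The labels give no hour of collection. An effect of the diet or of corticosterone on these genes and a difference in hour cannot be told apart.

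Cyp2d9, a male-biased steroid hydroxylase (chr15:82433437-82456845, plus strand), was not called by edgeR in any comparison of groups. It ranged over 432, 1217 and 1327 CPM in Cort ATGLi and 765, 1197 and 1608 CPM in Cort CON livers, against 397, 999 and 1192 CPM in EtOH ATGLi and 672, 1083 and 1436 CPM in EtOH CON livers, with overlap throughout (lowest, median, highest). Corticosterone changed Cyp2d9 by 0.21 ± 0.15 on the control diet and 0.32 ± 0.15 on the atglistatin diet (edgeR adjusted p = 0.265 and 0.094). The second passed without Cort ATGLi library 41 (0.38, edgeR adjusted p = 0.0223). In limma voom with sample weights Cyp2d9 was called higher with corticosterone on the control diet (0.37, limma adjusted p = 0.0148) and on the atglistatin diet (0.34, limma adjusted p = 0.0244). Atglistatin gave -0.22 ± 0.16 under vehicle and -0.11 ± 0.14 under corticosterone (edgeR adjusted p = 0.546 and 0.684). Its end words were shared with 12 other genes for 32.2% of their number, Cyp2d12 and Cyp2d10 among them. Cyp2d10, a neighbour of the same family, rose with corticosterone by 0.48 ± 0.08 on each diet (edgeR adjusted p = 2.34e-06 on the control diet).

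For none of the 10 members did the corticosterone effect differ between the diets at an adjusted p of 0.05 in edgeR, beside 1.43% of all genes. The count was 0 in DESeq2 and in limma voom too, and 1 member, Hsd3b5, had an unadjusted p under 0.05. Its difference was 1.52 ± 0.72 (edgeR adjusted p = 0.388), with Selenbp2 at 1.13 ± 0.79 (edgeR adjusted p = 0.637) and Socs2 at 1.02 as given above. These intervals are wide and do not show that the diets act alike. Among the 14 Cort CON livers, diabetic and nondiabetic labels separated 0 members and 0% of 12003 genes in edgeR. The count was 0 in DESeq2 and limma voom and 0 at an unadjusted p under 0.05. The labels do not follow glucose cleanly. Cort CON library 36 was labelled nondiabetic at a glucose value of 242, while library 37 was labelled diabetic at 254 and Cort ATGLi library 26 at 212. Hsd3b5 averaged 26.3 ± 21.8 CPM in 9 diabetic and 70.3 ± 37.7 CPM in 5 nondiabetic livers (SD; log2 difference -1.42 ± 0.77, edgeR adjusted p = 0.992). Selenbp2 averaged 261 ± 290 CPM in diabetic and 723 ± 629 CPM in nondiabetic livers (log2 difference -1.47 ± 0.86), and Socs2 9.68 ± 7.67 CPM in diabetic and 16.8 ± 1.58 CPM in nondiabetic livers (-0.82 ± 0.40, both edgeR adjusted p = 0.992). Over the 14 Cort ATGLi livers, 0 members had a slope on log2 insulin (5.92% of 12502 genes did, 2.01% with a positive and 3.91% with a negative slope) in edgeR, DESeq2 and limma voom, and 2 had an unadjusted p under 0.05. These were Igf1 with 0.16 ± 0.06 and Ghr with 0.18 ± 0.08 per doubling of the labelled insulin value (edgeR adjusted p = 0.141 and 0.187). Without library 41 the slopes were 0.02 and 0.0043 and the share of genes called was 0.0407%.

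Within groups the members differed widely in their spread between livers. The coefficient of variation in Cort ATGLi, Cort CON, EtOH ATGLi and EtOH CON livers was 17.7%, 12.6%, 10.7% and 14% for Igf1, 52.9%, 57.5%, 96.4% and 92.4% for Socs2, and 91.9%, 112%, 67.7% and 59.2% for Selenbp2. Levels of 10 pairs of members were correlated over livers within each group, 40 relations in all, in log2 CPM with 100000 permutations. By Pearson's r 20 of 40 had an adjusted permutation p of at most 0.05 (19 positive), and by Spearman's rho 7. Hsd3b5 and Selenbp2 gave r = 0.89 and rho = 0.90 in Cort CON livers (adjusted permutation p = 0.0004 and 0.0012, n = 14). Their r was 0.44 in Cort ATGLi (adjusted permutation p = 0.18), 0.76 in EtOH ATGLi (adjusted permutation p = 0.0168) and 0.78 in EtOH CON livers (adjusted permutation p = 0.019), with rho of 0.63, 0.76 and 0.71 in the same order (adjusted permutation p = 0.0712, 0.0712 and 0.0787). Without the 2 livers farthest from the median of Hsd3b5, r was 0.73, 0.85, 0.81 and 0.66 in Cort ATGLi, Cort CON, EtOH ATGLi and EtOH CON livers. In Cort CON livers it was the only one of the 40 relations still called after that step. The step narrows the range of the first gene and leaves 12 or 8 livers, which by itself can lower r and lose calls.

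Hsd3b5 and Cyp4a12a gave r of 0.89, 0.77, 0.90 and 0.40 in Cort ATGLi, Cort CON, EtOH ATGLi and EtOH CON livers (adjusted permutation p = 0.0062, 0.00808, 0.0177 and 0.337), with rho of 0.78, 0.76, 0.67 and 0.36 (adjusted permutation p = 0.0292, 0.0292, 0.0979 and 0.405). Without the 2 farthest livers r was 0.50, 0.51, 0.48 and -0.23, and none was still called. Ghr and Igf1 gave r of 0.90, 0.79, 0.10 and -0.74 (adjusted permutation p = 0.0413, 0.00747, 0.82 and 0.0339) and rho of 0.36, 0.72, -0.02 and -0.73 (adjusted permutation p = 0.311, 0.0313, 0.973 and 0.0712). Without the 2 farthest livers r was 0.23, 0.58, -0.15 and -0.56, and again none was still called. Igf1 and Igfals gave r of 0.89, 0.70, -0.0084 and 0.69 (adjusted permutation p = 0.019, 0.0168, 0.981 and 0.0595) and rho of 0.50, 0.62, 0.05 and 0.68 (adjusted permutation p = 0.145, 0.0712, 0.964 and 0.0951). Without the 2 farthest livers these were 0.17, 0.69, -0.045 and 0.43. Library 41, low for 8 members, is among the points of each Cort ATGLi relation, and without it 15 of the 40 relations were called.

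**Figure D3:**
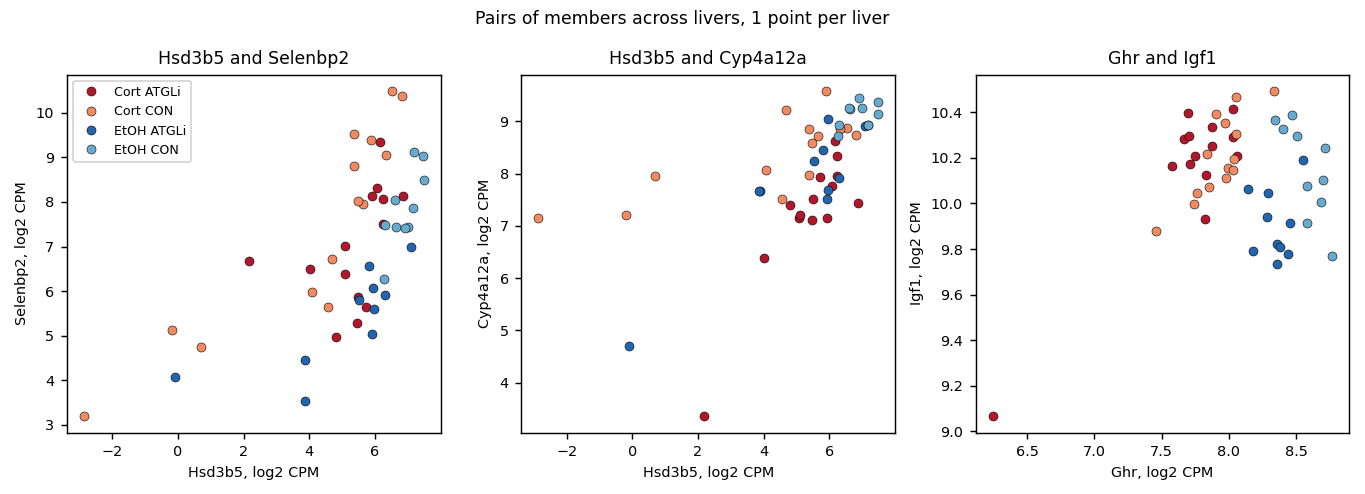
Log2 CPM of Hsd3b5 against Selenbp2, Hsd3b5 against Cyp4a12a, and Ghr against Igf1, with 1 point per liver coloured by group. Low Hsd3b5 goes with low Selenbp2 in Cort CON livers over the whole range, while in Ghr and Igf1 a single Cort ATGLi point, library 41, lies far from the rest of its group.

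Likeness to Socs2 and Hsd3b5 was described over the 48 libraries as the Pearson correlation of deviations from the group means, among 8258 genes with a mean of at least 5 CPM. The genes most like Socs2 were Plcxd2 (0.73), Onecut1 (0.72), B4galt1 (0.71), Lifr (0.70) and Onecut2 (0.67). The genes most like Hsd3b5 were Mup11 (0.88), Mup21 (0.85), Mup12 (0.84), C8a (0.84) and Ces3a (0.84), of which the Mup genes are near-identical copies with uncertain counts. Among the members, Selenbp2 came 19th of 8258 in likeness to Hsd3b5 (0.77), Elovl3 27th (0.75) and Cyp4a12a 41st (0.71). Igfals came 54th in likeness to Socs2 (0.47) and Igf1 90th (0.44). These points share libraries and depth.

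Other genes known to be higher in male liver moved in both directions with corticosterone. On the control diet 10 of 39 tested were called higher and 13 lower (median -0.07), beside 22.5% higher and 21.7% lower of all genes, and on the atglistatin diet 15 higher and 8 lower (median 0.28; all genes 19% and 17.7%). Nudt7, a peroxisomal hydrolase, was 43.2 to 242 CPM in Cort CON and 375 to 793 CPM in EtOH CON livers and fell by 2.23 ± 0.25 (edgeR adjusted p = 1.83e-10). Serpina3k, a secreted protease inhibitor of a family with near copies, rose by 1.12 ± 0.12 there (edgeR adjusted p = 2.21e-10), and Scara5, a scavenger receptor, by 3.33 ± 0.37 (edgeR adjusted p = 2.72e-10). With atglistatin under vehicle 1 of 39 was called higher and 9 lower (median -0.51, beside 1.47% higher and 1.66% lower of all genes), and under corticosterone 4 higher and 8 lower (median -0.16; all genes 5.19% and 6.47%). C9, a terminal complement component, was 237 to 460 CPM in EtOH ATGLi and 459 to 965 CPM in EtOH CON livers and fell by 0.97 ± 0.13 (edgeR adjusted p = 6.7e-06), and Cyp1a2, a xenobiotic enzyme, rose by 1.41 ± 0.22 (edgeR adjusted p = 6.52e-05). Over the alternatives of processing and of libraries, the 9 lower calls under vehicle ranged from 2 to 13 and the 13 lower calls with corticosterone on the control diet from 5 to 13.

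Of 30 tested genes known to be higher in female liver, 17 were called higher and 6 lower with corticosterone on the control diet (median 1.18), beside 22.5% higher and 21.7% lower of all genes, and 11 higher and 8 lower on the atglistatin diet (median 0.14; all genes 19% and 17.7%). Cyp39a1, an oxysterol hydroxylase, rose by 2.70 ± 0.25 on the control diet (edgeR adjusted p = 9.64e-13) and Cyp2c40, of a P450 family with near-identical copies, by 3.32 ± 0.37 (edgeR adjusted p = 2.33e-10). Hamp2, a hepcidin gene with a close copy, moved the other way and fell by 4.68 ± 0.44 with corticosterone on the atglistatin diet (edgeR adjusted p = 4.8e-12). With atglistatin under vehicle 8 of 30 were called higher and 1 lower (median 0.81; all genes 1.47% and 1.66%), and under corticosterone 0 higher and 3 lower (median -0.14; all genes 5.19% and 6.47%). Cyp4a14 and Cyp4a10, fatty acid hydroxylases, were among the 8, at 1.89 ± 0.39 and 1.29 ± 0.31 (edgeR adjusted p = 0.00194 and 0.0105). Over the alternatives the 8 higher calls ranged from 0 to 10.

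**Figure D4:**
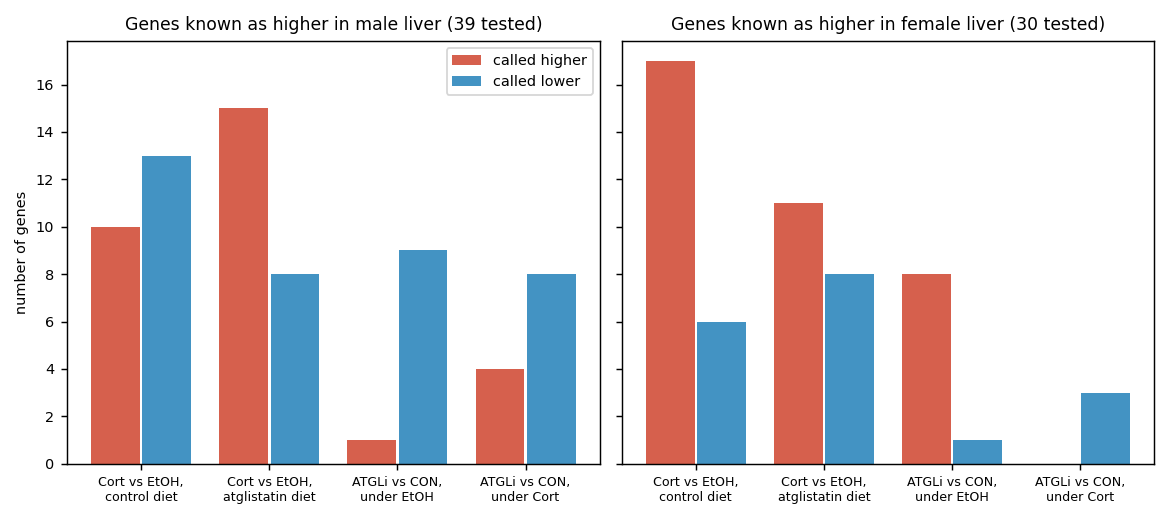
Number of genes called higher or lower (adjusted p at most 0.05) in 4 comparisons, among 39 tested genes known to be higher in male liver and 30 known to be higher in female liver. Bars start at 0. With corticosterone on the control diet 17 of the 30 female-biased genes were higher, beside 22.5% of all genes. With atglistatin under vehicle 9 of the 39 male-biased genes were lower and 8 of the 30 female-biased genes higher. Beside these stood 1.66% and 1.47% of all genes, and over the alternatives the vehicle counts ranged from 2 to 13 and from 0 to 10.

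Of 20 transcription factors known to shape these programmes, 8 were called higher and 4 lower with corticosterone on the control diet (median 0.24), and 5 higher and 4 lower on the atglistatin diet (median 0.01), beside 44.2% and 36.7% of all genes called. Hnf4a, a hepatocyte factor needed for male-biased genes, was 422 to 617 CPM in Cort CON and 246 to 511 CPM in EtOH CON livers and rose by 0.65 ± 0.09 (edgeR adjusted p = 3.72e-08). Bcl6, a male-biased repressor that growth hormone lowers and that was named after its values were seen, changed by 0.17 ± 0.51 on the control diet (edgeR adjusted p = 0.816) and ranged from 3.88 to 57.8 CPM in Cort CON and 2.63 to 62.7 CPM in EtOH CON livers. Nr3c1, the glucocorticoid receptor gene, fell by 0.42 ± 0.07 on the control diet (edgeR adjusted p = 1.42e-06). Nr1i3, the xenobiotic receptor CAR, rose with atglistatin by 1.01 ± 0.17 under vehicle and by 0.55 ± 0.14 under corticosterone (edgeR adjusted p = 0.000154 and 0.00534).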

How the data were processed

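RNA of 48 mouse livers was measured by QuantSeq with reads of 50 bases, per the labels' protocols. The authors deposited raw counts per gene and a normalized table whose values, a signal in the deposited file, equal those counts divided by 1 size factor per library (largest relative deviation 5.5e-15). GRCm38, R 3.6 and DESeq2 1.24.0 are named in the submitters' processing notes. Which aligner and counting tool were used, and whether strand was used, is not given in the sources used here. All 48 sample columns were matched to labels, with 0 columns unmapped. Symbols came from the table for 12491 genes and from the GRCm38 annotation for 1728 by gene ID, and 32 IDs had none.

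Counts were fitted in R 4.3.3 with edgeR 4.0.16 (quasi-likelihood test, TMM, 1 fit over all 48 libraries with a mean per group), after a filter on low counts (minimum count 10, minimum total 15). P-values were adjusted by Benjamini-Hochberg over all genes tested, and a gene was called at an adjusted p of at most 0.05. Errors of fold changes are standard errors computed from the fold change and its F statistic. CPM are TMM-scaled, and log2 CPM use a prior count of 2. The fit was tested on simulated data. Totals of 7449109 to 21175603 counts set the depth. No 2 libraries of a group agreed within counting noise (smallest chi-square per degree of freedom 6.215). The labels give individual glucose values but no cage or batch. The p-values set each difference or slope against the spread between these livers, and a part of cage or batch in it cannot be told apart.

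Alternatives were RLE size factors, DESeq2 1.42.0, limma 3.58.1 voom with sample weights, no filter, the compared groups alone, leaving out libraries, a clock covariate and a replicate block. Robust estimation and leaving out libraries 41 and 14 together were chosen after seeing the data. The members and gene lists were chosen with earlier results of these data known. Beyond the members, up to 4 called genes per list and comparison with the smallest p and a mean of at least 1 CPM were named, with near copies of members and the 5 genes most like Socs2 and Hsd3b5. Motifs were searched in RefSeq windows of GRCm38.p6. Shared 50-base words were counted over the last 500 bases of coding transcripts. Some genes that this rule names are not reported here.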

Additional observations from a re-analysis of the deposited data

Results flagged for a closer look

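Among 20 sets of 10 livers (10 members in each EtOH group), 2 held a liver far from the others, where chance gives about 1 in 20. Socs2 was 130.5 CPM in EtOH ATGLi library 12, and the next highest liver of that group had 69.1 CPM, a gap of 0.5 of the group's range. Cyp2d9 was 397 CPM in EtOH ATGLi library 14, and the next lowest had 771 CPM, a gap of 0.471 of the range.

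For 7 genes of the sex-biased and regulator lists the corticosterone effect differed between the atglistatin and control diets, beside 1.43% of all genes. They were 1 of 20 regulators (negative difference), 1 of 39 male-biased genes (positive) and 5 of 30 female-biased genes (negative). Over the alternatives these counts ranged from 0 to 2, 0 to 4 and 0 to 7. One of the 7 genes, the P450 gene Cyp2b9, had a mean of 0.851 CPM and is named after its values were seen (-4.74 ± 1.25, edgeR adjusted p = 0.0391). Cyp4a10 changed by -0.045 on the atglistatin diet and 1.90 on the control diet, a difference of -1.95 ± 0.41 (edgeR adjusted p = 0.00454). Its medians were 345 CPM in Cort ATGLi and 587 CPM in Cort CON livers, against 382 CPM in EtOH ATGLi and 147 CPM in EtOH CON livers, so the EtOH CON livers were the low group. Cyp4a14 gave 0.74 on the atglistatin diet and 2.58 on the control diet, a difference of -1.83 ± 0.49 (edgeR adjusted p = 0.0432). Hamp2 gave -4.68 and -2.28 on these diets, a difference of -2.40 ± 0.58 (edgeR adjusted p = 0.0213), and Rdh16, a retinol dehydrogenase gene, -1.75 and -0.58, a difference of -1.17 ± 0.26 (edgeR adjusted p = 0.00877). Nat8f5 gave 1.11 and -0.08, a difference of 1.19 ± 0.30 (edgeR adjusted p = 0.0254). Cux2, a female-biased regulator, gave -1.44 and 2.55, a difference of -3.99 ± 1.01 (edgeR adjusted p = 0.0285). Its medians were all under 1 CPM, with single livers at 8.87 CPM in Cort CON and 12.1 CPM in EtOH ATGLi.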

How the results depend on the processing

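RLE size factors, DESeq2, no filter and robust estimation left the number of members called in each comparison as reported. The count for atglistatin under vehicle, 1 as reported, was 3 in limma voom, 2 with the compared groups alone, 2 without library 41, 2 without libraries 41 and 14, 0 without the libraries rich in Cpa1 and 0 with the clock covariate. Over all genes that comparison gave 397 calls, 899 in voom, 207 without the Cpa1-rich libraries and 15 with the clock covariate. For corticosterone on the control diet the count of 3 became 1 without the diabetic mice (5606 calls over all genes became 3614). It became 5 without libraries 41 and 14, which lie outside the groups compared, and Igfals and Cyp4a12a were gained. On the atglistatin diet 4 became 2 without the Cpa1-rich libraries and 3 with the compared groups alone, where Igf1 was lost. For atglistatin under corticosterone 2 became 1 without the diabetic mice, where Stat5b and Cyp4a12a were lost and Selenbp2 was gained (1479 over all genes became 609), and 0 with the clock covariate (793). The same count was 3 with the compared groups alone, where Socs2 was gained. The interaction gave 181 genes, 359 in voom, 76 without the diabetic mice and 64 without the Cpa1-rich libraries, and the insulin slope 740 genes, 9 in voom and 5 without library 41. Of 40 correlations 20 became 1 without the 2 farthest livers, a step that also narrows the range and the number of livers. There r turned for 1 called relation, Hsd3b5 and Elovl3 in Cort ATGLi livers (0.82 to -0.09). Among those not called it turned to -0.15 for Ghr and Igf1 in EtOH ATGLi, to -0.35 and -0.34 for Socs2 and Igf1 in Cort ATGLi and Cort CON, and to -0.06 for Stat5b and Socs2 in Cort ATGLi livers. In EtOH CON livers it turned to -0.23 for Hsd3b5 and Cyp4a12a, -0.12 for Socs2 and Hsd3b5 and -0.48 for Cyp4a12a and Selenbp2.

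Fold changes whose sign turned had not passed the threshold as reported. Socs2 for atglistatin under vehicle was -0.0077 with RLE, -0.013 in DESeq2, -0.0035 without the diabetic mice, -0.0010 without library 41, -0.13 without libraries 41 and 14, and -0.62 with the clock covariate. Selenbp2 for corticosterone on the control diet was -0.066 in voom. For corticosterone on the atglistatin diet Igfals was 0.046 in voom, 0.013 without the diabetic mice and 0.065 without library 41, Hsd3b5 was 0.37, 0.026 and 0.055 in the same order, and Elovl3 was 0.024, 0.049 and 0.089, with 0.020 without the Cpa1-rich libraries. Under corticosterone atglistatin gave Igf1 0.010 in voom, 0.028 without library 41 and 0.018 without libraries 41 and 14, Elovl3 0.031 in voom and Hsd3b5 -0.37 without the diabetic mice. Under vehicle Igfals was 0.042 without the Cpa1-rich libraries. The cause was not tested. Without 1 library at a time the count ran from 2 to 4 for corticosterone on the atglistatin diet (2 without Cort ATGLi library 26) and from 0 to 2 for atglistatin under vehicle. In the first of these comparisons Igfals ran from -0.066 to 0.065, Hsd3b5 from -0.21 to 0.21 and Elovl3 from -0.15 to 0.089. Socs2 ran from -0.43 to 0.28 for atglistatin under vehicle and Igf1 from -0.066 to 0.028 for atglistatin under corticosterone.

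Same-numbered livers of different groups correlated between -0.117 and 0.0357 over genes. The labels do not say what the numbers mark, and such correlations cannot tell whether they stand for a shared cage or day. With the number as a block, 2 pairs gave 0 called members for corticosterone on the atglistatin diet (1 in the same 2 pairs with no block), and 4 pairs gave 0 for atglistatin under vehicle (0 with no block). In the 2 pairs Hsd3b5 was 1.84 with the block and 0.30 with none, Elovl3 2.86 and 2.23, and Cyp4a12a 1.10 and 0.46. In the 4 pairs Socs2 was -0.91 with the block and -0.13 with none, and Cyp2d9 0.053 with the block.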

Other observations

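Lipid genes that growth hormone is known to hold down in liver were described as a further list of 12 tested genes. With corticosterone on the control diet 5 were called higher and 3 lower (median 0.02), and on the atglistatin diet 4 higher and 4 lower (median -0.09), beside 44.2% and 36.7% of all genes called. Fabp4, a fatty acid carrier, was 14.7 to 51.5 CPM in Cort ATGLi and 21.6 to 55.3 CPM in Cort CON livers, against 10.6 to 18.6 CPM in EtOH ATGLi and 9.16 to 20.0 CPM in EtOH CON livers. Its groups did not overlap on the control diet, as was so for 6.11% of all genes. Fabp4 rose with corticosterone by 1.34 ± 0.16 on the control diet (edgeR adjusted p = 1.95e-09) and fell with atglistatin by 0.65 ± 0.14 under corticosterone (edgeR adjusted p = 0.00103). Scd1, the fatty acid desaturase, had medians of 735 CPM in Cort ATGLi and 1094 CPM in Cort CON livers, against 2358 CPM in EtOH ATGLi and 2614 CPM in EtOH CON livers. It fell with corticosterone by 1.66 ± 0.25 on the atglistatin diet and by 1.31 ± 0.25 on the control diet (edgeR adjusted p = 7.89e-07 and 3e-05). Mogat1, which makes diacylglycerol, fell with atglistatin under corticosterone by 1.42 ± 0.31 (edgeR adjusted p = 0.00123), one of 4 genes called lower there with 0 higher, beside 11.7% of all genes called. Under vehicle 0 of 12 were called with atglistatin.

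Among 15 tested near copies of the members, 4 were called higher and 6 lower with corticosterone on the control diet, and 3 higher and 3 lower on the atglistatin diet, beside 44.2% and 36.7% of all genes called.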
